A study of Homo sapiens with 24 samples.

Results

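The BCL2 family genes described here were BCL2L1, MCL1, BCL2L11, BBC3, PMAIP1, BAX, BAK1, BID, BAD and BIK, chosen by name and followed through every probe that the platform annotation assigns to them. They had 21 of the 47323 probes on the array. Of these, 19 were kept for testing because they were detected above background on at least 2 arrays (detection p under 0.01), and all 10 genes had a kept probe. Illumina HumanHT-12 v4 arrays measured the RNA of SW480, an established human colon cancer cell line, infected with pBABE-puro retrovirus. The arrays came from 12 groups of 2, 24 in all, each harvested after 24 h of treatment. Cells carrying BOP1, a ribosome assembly factor, were given LY294002 (3.3 µM), SP600125 (33.3 nM), DAPT (667 nM) or the solvent DMSO. Cells carrying CKS2, a small protein that binds cyclin-dependent kinases, were given LY294002 (3.3 µM), SB203580 (3.3 µM) or DMSO. Cells carrying NFIL3, a bZIP transcription factor, were given LY294002 (3.3 µM), SB203580 (3.3 µM), Rapamycin (33.3 nM) or DMSO. Cells with the control retrovirus were given DMSO only, so no inhibitor was measured in cells without an added gene. LY294002 inhibits PI3 kinase, SB203580 p38 MAP kinase, SP600125 JNK, DAPT gamma-secretase and Rapamycin mTOR complex 1. The labels do not say whether each transduced line was a pool of cells or a clone.

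BCL2 family proteins decide whether the outer mitochondrial membrane stays intact. The effectors BAX and BAK1 can form pores that release cytochrome c, which activates caspases. The pro-survival proteins BCL-XL (from BCL2L1) and MCL1 hold the effectors and the BH3-only proteins in check, and the BH3-only proteins BIM (BCL2L11), PUMA (BBC3), NOXA (PMAIP1), BID, BAD and BIK bind pro-survival proteins or activate the effectors. Several of these genes are known to answer to PI3 kinase signalling: AKT phosphorylates BAD, and FOXO factors, which AKT holds outside the nucleus, can switch on BCL2L11 and BBC3. RNA level says nothing of protein level, phosphorylation or cell death, none of which was measured here.

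Signal values below are log2 values after background correction and quantile normalization. The mean raw signal of an array lay between 971 and 1366, between 17984 and 19958 probes were detected on each array, and the 2 arrays of a group correlated at 0.990 to 0.996. The cells expressed 6 of 10 colon epithelial markers on all 24 arrays (CDH1, CDX2, EPCAM, KRT8, KRT18 and KRT19), and the other 4 were detected on none. Of markers of other cell types, CD68 was detected on all arrays among 7 leukocyte markers on the array, COL1A1 among 8 fibroblast markers and none among 6 endothelial markers. Detected on no array were 3 of the leukocyte, 6 of the fibroblast and 5 of the endothelial markers, and the rest were detected on some arrays only. With 2 arrays a group, the precision of every value is limited by the number of arrays.

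The 15 well-measured member probes were detected on all 24 arrays and covered 9 of the 10 genes. BCL2L11 was at the edge of detection: ILMN_2359627 was detected on 14 arrays, ILMN_1766541 on 2 and ILMN_1774997 on none. Of the other dim probes, BID ILMN_2259495 and BAD ILMN_1720360 were detected on 3 arrays each, and BAX ILMN_2258383 on none. Over the 12 groups, 10 of the 19 probes, from 8 genes, varied by limma's moderated F test at an adjusted p under 0.05. Of all probes tested, 55.8% did so, so the members varied about as often as the rest of the array. The range between the lowest and the highest group mean had a median of 0.70 over the member probes and of 0.68 over all probes. The widest ranges were those of BAD ILMN_1685398 (1.31), BAK1 ILMN_1805990 (1.21), BCL2L11 ILMN_2359627 (0.92), BAX ILMN_2321064 (0.92) and BBC3 ILMN_1729645 (0.91). Neither probe of BCL2L11 passed the F test (adjusted p = 0.131 and 0.148), nor did any of the 3 probes of BID (0.146 to 0.481).

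The RefSeq promoter windows of the members (GRCh38.p14, 250 bases before to 50 after a gene's start) are shown for 4 genes: PMAIP1 and BBC3, which rose with LY294002, BAD, whose group means ranged widest, and BCL2L11, the member that holds a FOXO match. RefSeq entries matched 8 of the 10 genes, with 14 windows, and MCL1 and BIK had no entry. Capitals mark a match, on either strand, to 1 of 4 motifs: the FOXO motif TGTTTAC (in 3.42% of 35116 promoters), the full cyclic AMP response element TGACGTCA (1.85%), its half-site TGACGT (7.98%) and the CEBP-ATF composite motif TGATGNAA (3.62%). The full element contains the half-site, so those matches overlap. Positions count from the gene's start, and the first base of the match is given. PMAIP1 (chr18:59899746-59900045, plus strand) held the half-site on the reverse strand at position -56. BAD (chr11:64284655-64284954, minus strand) held it at -54, and the same site lay at -93 in its second, overlapping window. BCL2L11 (chr2:111120664-111120963, plus strand) held the FOXO motif on the reverse strand at -223. BBC3 (chr19:47232618-47232917, minus strand) held none of the 4, and neither did the windows of BCL2L1, BAX, BAK1 and BID. A match describes the letters of the window and is not a measured binding site.
PMAIP1: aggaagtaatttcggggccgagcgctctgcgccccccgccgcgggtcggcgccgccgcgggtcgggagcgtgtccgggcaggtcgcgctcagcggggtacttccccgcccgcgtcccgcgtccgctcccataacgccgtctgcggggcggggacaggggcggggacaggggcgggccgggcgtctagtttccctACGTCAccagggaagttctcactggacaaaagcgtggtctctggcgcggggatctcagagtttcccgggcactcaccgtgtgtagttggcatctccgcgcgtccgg
BBC3: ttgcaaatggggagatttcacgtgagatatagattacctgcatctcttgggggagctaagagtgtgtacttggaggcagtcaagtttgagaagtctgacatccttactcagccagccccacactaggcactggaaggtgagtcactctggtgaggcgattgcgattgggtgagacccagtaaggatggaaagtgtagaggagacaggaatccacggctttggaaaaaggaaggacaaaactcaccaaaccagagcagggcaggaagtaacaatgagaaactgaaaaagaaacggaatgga
BAD: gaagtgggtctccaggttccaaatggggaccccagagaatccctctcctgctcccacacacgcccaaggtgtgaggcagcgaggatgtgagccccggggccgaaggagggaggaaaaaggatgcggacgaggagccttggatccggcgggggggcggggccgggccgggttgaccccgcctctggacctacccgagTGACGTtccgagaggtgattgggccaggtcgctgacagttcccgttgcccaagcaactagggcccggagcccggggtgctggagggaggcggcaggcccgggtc
BCL2L11: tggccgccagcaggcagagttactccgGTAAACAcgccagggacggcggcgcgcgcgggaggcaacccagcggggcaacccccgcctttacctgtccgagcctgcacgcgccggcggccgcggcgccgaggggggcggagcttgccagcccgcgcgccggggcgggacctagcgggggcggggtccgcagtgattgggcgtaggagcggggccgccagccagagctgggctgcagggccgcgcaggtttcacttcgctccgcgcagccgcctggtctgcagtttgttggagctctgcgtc

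The first comparison was of each transduced line with the control line, all in DMSO. On 1 of its 2 kept probes BAX rose in the BOP1 and CKS2 lines, by 1.61-fold and 1.75-fold, 1 of the 2 BCL2L1 probes fell in the CKS2 line, and no member probe passed the test in the NFIL3 line. The calls were 1 of 19 member probes in the BOP1 line (11.0% of all probes tested), 2 of 19 in CKS2 cells (11.0%) and 0 of 19 in NFIL3 cells (10.7%), all at or under the share of the whole array. The 3 calls in all became 8 from log2 raw signals, 8 from the authors' processed values and 9 with median scaling, so their number depends on the processing. At an unadjusted p under 0.05 each of the 3 lines had 5 member probes. Of the 21608 probes tested, 5915, 5962 and 5883 met it in the BOP1, CKS2 and NFIL3 lines. The 3 comparisons share the 2 control arrays, so a low or high control value enters all of them.

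Among the effectors, BAX ILMN_2321064 read 11.48 and 11.33 in BOP1 cells, 11.46 and 11.58 in CKS2 cells, 11.11 and 11.36 in NFIL3 cells, and 10.90 and 10.53 in control. All 6 arrays of the transduced lines lay above both control arrays. BOP1 cells differed from control by 0.69 and CKS2 cells by 0.81 (SE 0.17 each), with limma adjusted p of 0.0169 and 0.007. In the NFIL3 line it was 0.52 (SE 0.17, adjusted p = 0.0541, limma), short of the threshold. BAX ILMN_1683300 averaged 7.83 to 7.94 in the transduced lines and 7.89 in control. BAK1 ILMN_1805990, the probe of the partner effector, read 7.72 and 7.71 in BOP1 cells, 7.75 and 7.88 in CKS2 cells, 7.73 and 7.68 in NFIL3 cells, and 8.53 and 8.34 in control. Its differences of -0.72, -0.63 and -0.73 had limma adjusted p of 0.0562, 0.0924 and 0.0545, so none was called, although the 6 transduced arrays all lay below the control arrays.

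Among the pro-survival genes, BCL2L1 ILMN_1654118 averaged 13.14 in the BOP1 line, 13.09 in the CKS2 line, 13.17 in the NFIL3 line and 13.47 in control (n = 2 each). Its control arrays, at 13.65 and 13.29, were farther apart than those of any other group for this probe. The fall by 0.38 in the CKS2 line passed the test by a narrow margin (SE 0.11, limma adjusted p = 0.0452). It ended in 17 of 24 fits that left out 1 array (adjusted p 0.0511 to 0.36), and the difference was -0.20 without control array 1. The same probe differed by -0.33 in BOP1 cells and -0.30 in NFIL3 cells without a call (limma adjusted p = 0.0785 and 0.104). BAX kept its call in the CKS2 line except without control array 2 or CKS2 array 2 (difference 0.62 to 0.75). In the BOP1 line the BAX call ended without control array 2 or without either BOP1 array (0.50 to 0.76). With only the arrays compared, BAX in BOP1 cells and BCL2L1 in CKS2 cells were not called (limma adjusted p = 0.0671 and 0.172), and with no filter on dim probes BCL2L1 was not (0.0992). With the replicate number as a block BCL2L1 had a limma adjusted p of 0.0514.

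A comparison of the mean of the 3 transduced lines with control, chosen after seeing the data, called 3 of 19 member probes (15.8%), against 19.4% of all probes tested. BAX ILMN_2321064 rose by 0.67 (SE 0.14, limma adjusted p = 0.0033). BAK1 ILMN_1805990 fell by 0.69 (SE 0.19, adjusted p = 0.0185) and BCL2L1 ILMN_1654118 by 0.33 (SE 0.09, adjusted p = 0.0212). BAX ILMN_1683300 was not called (95% interval of the difference -0.25 to 0.26), so the rise of BAX rests on 1 of its 2 kept probes. The 6 transduced arrays and the 2 control arrays did not overlap for 6 of 19 member probes (BCL2L1, MCL1 ILMN_1756806, BBC3, BAX, BAK1 and BIK), and for 35.5% of all probes. Each call depended on a control array: BAX ended without control array 2 (0.49), BCL2L1 without control array 1 (-0.16) and BAK1 without either (-0.79 to -0.60). With only the arrays compared BCL2L1 was not called (limma adjusted p = 0.0772).

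Set against each other in DMSO, the 3 transduced lines gave no call in any member. Of all probes tested 0.00463%, 0.00463% and 0% were called for BOP1 against CKS2, BOP1 against NFIL3 and CKS2 against NFIL3, so limma found almost nothing in these comparisons at all. At an unadjusted p under 0.05 there were 1, 0 and 1 member probes, and 721, 1615 and 1406 probes of the whole array.

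**Figure D1:**
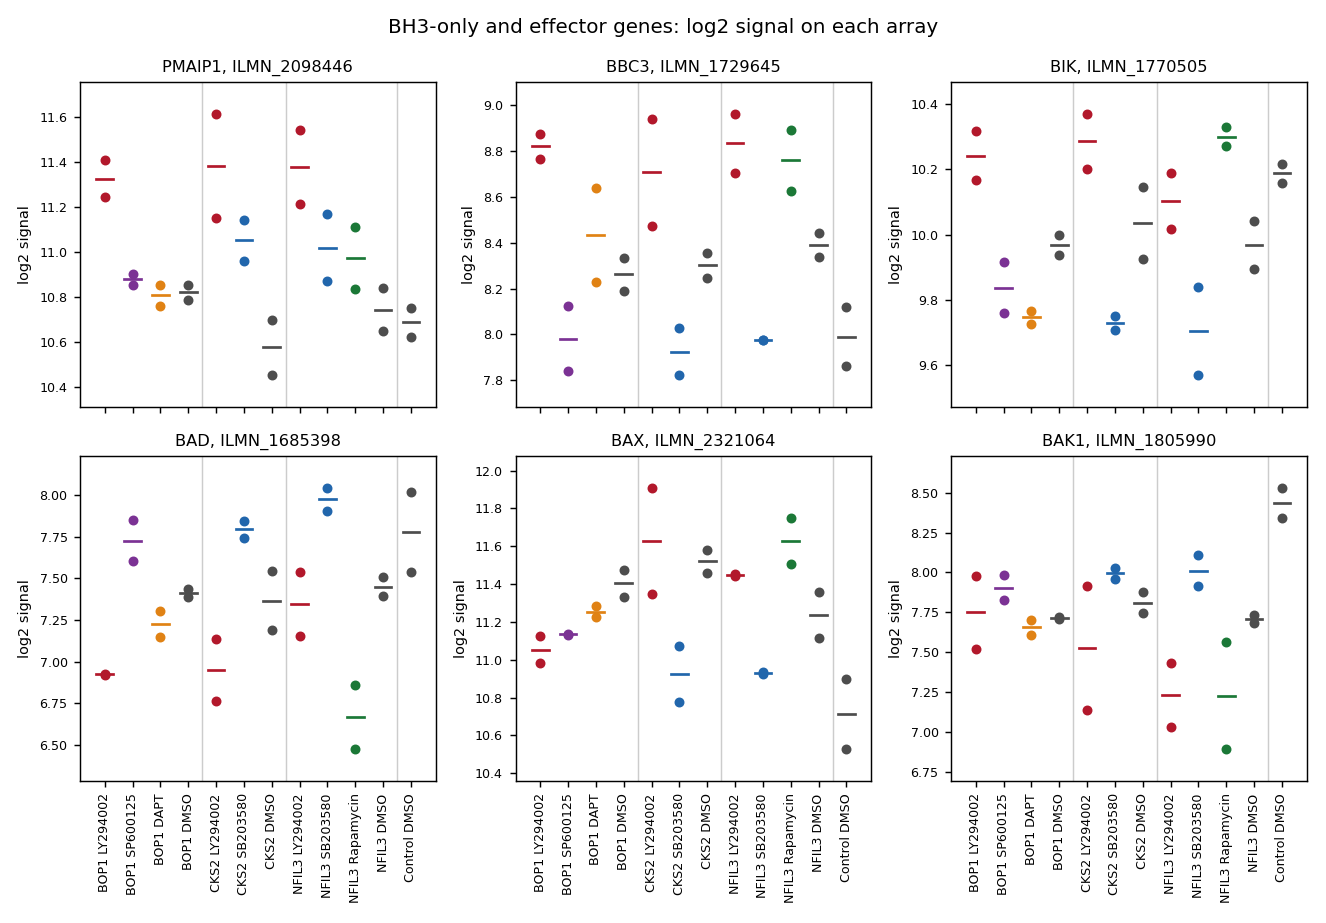
Log2 signal (vertical axis) of 6 probes of BH3-only and effector genes on each of the 24 arrays, by line and treatment (horizontal axis); points are arrays and bars are group means. PMAIP1 and BBC3 stand higher in the 3 LY294002 groups than in their DMSO groups, BAX is lowest in control and BAK1 highest in control.

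LY294002 was given to all 3 transduced lines, and each was compared with its own DMSO arrays. PMAIP1 rose in every line on 1 of its 2 probes, by 1.42-fold in BOP1, 1.75-fold in CKS2 and 1.55-fold in NFIL3 cells. BCL2L1 also rose in every line on 1 of its 2 probes, by 1.29-fold to 1.40-fold. BBC3 rose in the BOP1 line, and 1 of the 2 MCL1 probes fell in the CKS2 line. In single lines 4, 3 and 3 of 19 member probes were called in the BOP1, CKS2 and NFIL3 lines, against 17.4%, 20.6% and 22.0% of all probes. Averaged over the 3 lines, 8 of 19 member probes (42.1%) were called, 6 up and 2 down, against 43.4% of all probes (20.7% up and 22.7% down), so the members changed about as often as any other probes.

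Among the BH3-only genes, PMAIP1 encodes NOXA, which binds chiefly MCL1. Its probe ILMN_2098446 read 11.41 and 11.24 with LY294002 against 10.85 and 10.79 with DMSO in the BOP1 line. It read 11.15 and 11.62 with LY294002 against 10.45 and 10.70 with DMSO in the CKS2 line, and 11.55 and 11.22 against 10.65 and 10.84 in the NFIL3 line. The 6 LY294002 arrays all lay above the 6 DMSO arrays. The differences were 0.51, 0.81 and 0.64 (SE 0.16 each), with limma adjusted p of 0.0414, 0.00282 and 0.0107, and the mean over the lines was 0.65 (SE 0.09, adjusted p = 4.64e-05). The second probe, ILMN_1689525, rose by 0.34 on average (SE 0.11, limma adjusted p = 0.0195) and was called in no single line (CKS2 adjusted p = 0.0505). Its averaged call ended without NFIL3 DMSO array 1, BOP1 LY294002 array 2, CKS2 LY294002 array 2 or NFIL3 LY294002 array 1 (0.25 to 0.29).

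BBC3 ILMN_1729645, the probe of the FOXO target PUMA, rose by 0.47 on average (SE 0.10, limma adjusted p = 0.0011). It read 8.87 and 8.77 with LY294002 against 8.19 and 8.33 with DMSO in the BOP1 line, where the rise of 0.56 was called (limma adjusted p = 0.033). In the CKS2 line it read 8.47 and 8.94 with LY294002 against 8.25 and 8.36 with DMSO, and in the NFIL3 line 8.70 and 8.96 against 8.34 and 8.44. The LY294002 arrays again lay above all DMSO arrays, although the differences of 0.41 and 0.44 in the CKS2 and NFIL3 lines were not called (limma adjusted p = 0.102 and 0.0718). PMAIP1 ILMN_2098446, BBC3 and BCL2L1 ILMN_1654118 were the 3 of 19 member probes whose 6 LY294002 and 6 DMSO arrays did not overlap, against 18.3% of all probes.

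BIK, a BH3-only protein of the endoplasmic reticulum, rose by 0.22 on average (SE 0.07, limma adjusted p = 0.0135). The averages were 10.24, 10.29 and 10.10 with LY294002 and 9.97, 10.03 and 9.97 with DMSO in the BOP1, CKS2 and NFIL3 lines. BAD, whose protein AKT phosphorylates, went down on 1 probe: ILMN_1685398 averaged 6.92, 6.95 and 7.34 with LY294002 and 7.41, 7.37 and 7.45 with DMSO. The fall by 0.34 (SE 0.11) had a limma adjusted p of 0.0171, and it ended without CKS2 DMSO array 1, CKS2 LY294002 array 2 or NFIL3 LY294002 array 2 (-0.28 to -0.27). The brightest BAD probe, ILMN_1738652, differed by -0.14 without a call. The dim BAD probe ILMN_1720360 was called lower in the BOP1 line (limma adjusted p = 0.041), but it was not well above background on either LY294002 array and on 1 of 2 DMSO arrays, so no size is given. BCL2L11, a known FOXO target, gave no call. Its best detected probe, ILMN_2359627, averaged 6.13, 6.04 and 5.57 with LY294002 and 6.28, 6.49 and 5.86 with DMSO, and it was not well above background on either NFIL3 DMSO array. The BID probes ILMN_1763386 and ILMN_2372413 differed by -0.18 and -0.11 on average, without a call, and the dim ILMN_2259495 was not well above background in any LY294002 group.

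Among the pro-survival genes, BCL2L1 ILMN_1654118 read 13.61 and 13.65 with LY294002 against 13.12 and 13.17 with DMSO in the BOP1 line. It read 13.62 and 13.43 with LY294002 against 13.18 and 13.01 with DMSO in the CKS2 line, and 13.52 and 13.56 against 13.08 and 13.27 in the NFIL3 line. No LY294002 array fell within the DMSO range. The rises of 0.49, 0.43 and 0.37 (SE 0.11 each) were called in each line (limma adjusted p = 0.00898, 0.0154 and 0.0295), and the mean was 0.43 (SE 0.07, adjusted p = 8.86e-05). With LY294002 this probe averaged 13.52 to 13.63, against 13.47 in control cells in DMSO. The second BCL2L1 probe, ILMN_1742410, rose by 0.23 on average (SE 0.06, limma adjusted p = 0.00899), most clearly in the NFIL3 line with 10.68 and 10.58 on LY294002 against 10.24 and 10.27 on DMSO (0.38, adjusted p = 0.0238).

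MCL1, the short-lived partner of NOXA, was called on 1 of its 2 probes. ILMN_1756806 fell by 0.27 on average (SE 0.08, limma adjusted p = 0.00998). It read 9.39 and 9.06 with LY294002 against 9.67 and 9.66 with DMSO in the CKS2 line, where it was called (-0.44, limma adjusted p = 0.0306). ILMN_1803988 stood at 10.94 and 11.15 with LY294002 and 10.82 and 10.70 with DMSO in the same line, a difference of 0.28 that was not called (limma adjusted p = 0.0721). The gene is known to give a long and a short splice form, as is BCL2L1, but which transcripts each probe reads was not used here. Whether 2 probes of a gene answered LY294002 unequally was tested for 6 pairs by an exact permutation test of treatment within lines (two-sided, 216 arrangements, smallest p 0.00926). The MCL1 probes differed in response by 0.41 (exact permutation p = 0.0185, 0.0556 after Benjamini-Hochberg adjustment over the 6 pairs). The PMAIP1 probes differed by 0.31 with the same exact p-values and the BCL2L1 probes by 0.20 (exact permutation p = 0.0463, adjusted 0.0926). A single pair at the smallest p would adjust to 0.0556, so no pair could pass alone at this number of arrays. The pairs of BAD, BID and BAX had adjusted exact permutation p of 0.403, 0.678 and 0.713.

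The effectors gave no call with LY294002. BAX ILMN_2321064 averaged 11.05, 11.63 and 11.45 with LY294002 and 11.40, 11.52 and 11.24 with DMSO in the BOP1, CKS2 and NFIL3 lines. The mean difference was -0.01 (95% interval -0.21 to 0.19). The difference between the BOP1 and NFIL3 lines in this response was -0.56 (SE 0.23) and was not called (limma adjusted p = 0.393). BAK1 differed by -0.24 on average (95% interval -0.52 to 0.04). No member was called for a difference between lines in the response to LY294002, where 0%, 0% and 0.0879% of all probes were called for BOP1 against CKS2, BOP1 against NFIL3 and CKS2 against NFIL3. Unadjusted p under 0.05 was met by 0, 2 and 0 member probes, and by 1321, 2260 and 2327 probes of the whole array.

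The LY294002 rises of PMAIP1 ILMN_2098446, BCL2L1 ILMN_1654118 and BBC3 and the fall of MCL1 ILMN_1756806, averaged over the lines, kept their calls under every setting and every left-out array. Quantile normalization mattered for 3 averaged calls: with median scaling BCL2L1 ILMN_1742410 (0.12), PMAIP1 ILMN_1689525 (0.27) and BIK (0.12) were not called. Median scaling also ended the single-line calls of PMAIP1 ILMN_2098446 (0.35) and BBC3 (0.45) in the BOP1 line, BCL2L1 ILMN_1654118 in the CKS2 (0.22) and NFIL3 (0.33) lines and BCL2L1 ILMN_1742410 in the NFIL3 line (0.30). With no filter on dim probes, 6 single-line calls missed the threshold: PMAIP1 ILMN_2098446, BBC3 and BAD ILMN_1720360 in BOP1 cells, MCL1 in CKS2 cells and both BCL2L1 probes in NFIL3 cells (limma adjusted p 0.0556 to 0.0839). Fitted to the arrays of 1 comparison alone, no single-line LY294002 call of a member remained (limma adjusted p 0.0623 to 0.152), and PMAIP1 in the CKS2 line was the single-line call that no left-out array ended. Leaving out an array of the line's own 2 groups could end each of the others, and for PMAIP1 in the BOP1 line an array of the SP600125 or DAPT group also did (difference 0.42 to 0.59). The BCL2L1 ILMN_1654118 call ended without BOP1 DMSO array 1 (0.46) in the BOP1 line, without CKS2 DMSO array 2 or LY294002 array 1 (0.33 to 0.34) in the CKS2 line, and without NFIL3 DMSO array 1 or either LY294002 array (0.27 to 0.39) in the NFIL3 line. The PMAIP1 ILMN_2098446 call in the NFIL3 line ended without DMSO array 1 or LY294002 array 1 (0.47 to 0.54), and the MCL1 call in the CKS2 line without either DMSO array or LY294002 array 2 (-0.44 to -0.28). The BBC3 (0.49 to 0.63) and BAD ILMN_1720360 calls in the BOP1 line and the BCL2L1 ILMN_1742410 call (0.33 to 0.43) in the NFIL3 line ended without any 1 of their 4 arrays.

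**Figure D2:**
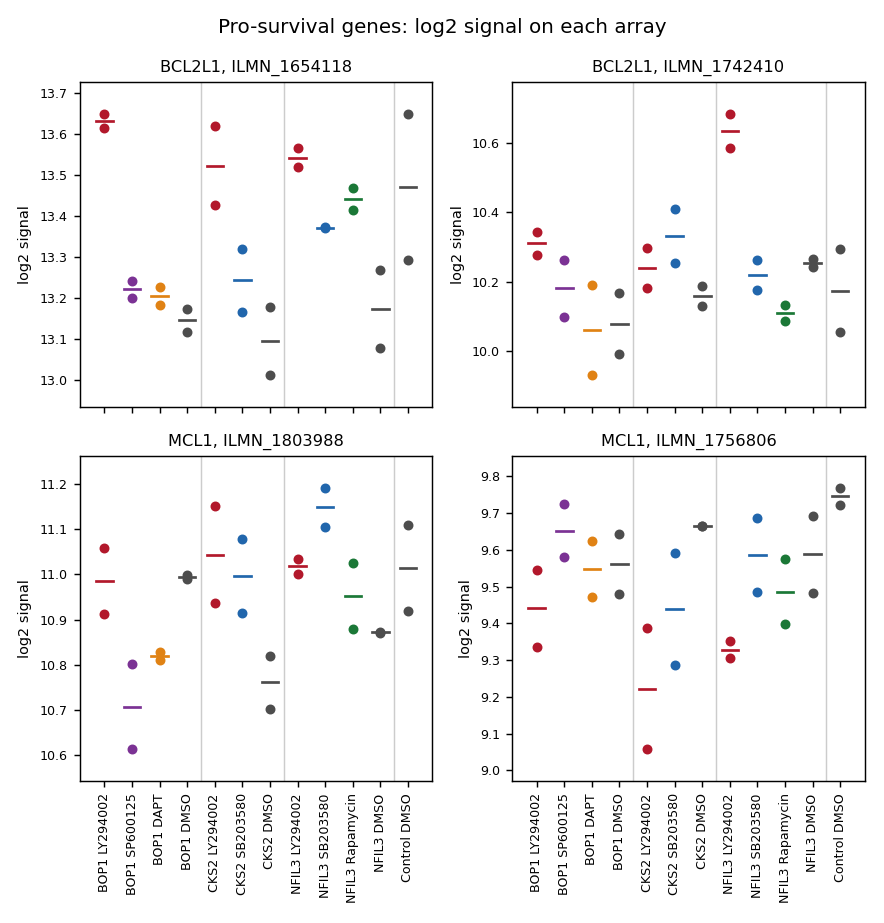
Log2 signal (vertical axis) of the 2 BCL2L1 and 2 MCL1 probes on each of the 24 arrays, by line and treatment (horizontal axis); points are arrays and bars are group means. BCL2L1 ILMN_1654118 averages 13.52 to 13.63 in the LY294002 groups and 13.09 to 13.17 in their DMSO groups, while MCL1 ILMN_1756806 averages 9.22 with LY294002 and 9.67 with DMSO in the CKS2 line.

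SB203580 was given to the CKS2 and NFIL3 lines at the same dose as LY294002. BAX ILMN_2321064 fell in the CKS2 line, and no other member probe passed the test in a single line. The second BAX probe, ILMN_1683300, differed by -0.04 in CKS2 cells and -0.31 in NFIL3 cells (SE 0.15 each, limma adjusted p = 0.893 and 0.205). The calls were 1 of 19 member probes in CKS2 cells (9.42% of all probes tested) and 0 of 19 in NFIL3 cells (9.91%). Unadjusted p under 0.05 was met by 7 and 4 member probes, and by 5440 and 5411 probes of the whole array. BAX ILMN_2321064 read 11.07 and 10.77 with SB203580 against 11.46 and 11.58 with DMSO in the CKS2 line. In the NFIL3 line it read 10.93 and 10.94 with SB203580 against 11.11 and 11.36 with DMSO. All SB203580 arrays lay below the DMSO arrays of their line, and with SB203580 the probe averaged 10.92 and 10.93, against 10.71 in control cells in DMSO. The fall by 0.60 in the CKS2 line (SE 0.17) had a limma adjusted p of 0.0336. It ended with no filter on dim probes (0.067), with only the arrays compared (0.0655) and without any 1 of its 4 arrays (-0.75 to -0.45).

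Averaged over both lines, a comparison chosen after seeing the data, 6 of 19 member probes were called (31.6%), against 23.6% of all probes (10.9% up and 12.7% down). Of these, 3 rose: BAD ILMN_1685398 by 0.48 (SE 0.13, limma adjusted p = 0.0146), PMAIP1 ILMN_2098446 by 0.38 (SE 0.11, adjusted p = 0.0258) and MCL1 ILMN_1803988 by 0.26 (SE 0.08, adjusted p = 0.0222). The other 3 fell: BAX ILMN_2321064 by 0.45 (SE 0.12, limma adjusted p = 0.0113), BBC3 by 0.39 (SE 0.12, adjusted p = 0.0258) and BIK by 0.28 (SE 0.08, adjusted p = 0.0187). Another probe each of BAD, PMAIP1, MCL1 and BAX, detected on all 24 arrays, was not called. BAD ILMN_1738652 differed by -0.008, PMAIP1 ILMN_1689525 by 0.08, MCL1 ILMN_1756806 by -0.11 and BAX ILMN_1683300 by -0.18. BBC3 read 7.82 and 8.03 with SB203580 against 8.25 and 8.36 with DMSO in the CKS2 line, and 7.98 and 7.98 against 8.34 and 8.44 in the NFIL3 line. BAD ILMN_1685398 read 7.74 and 7.85 with SB203580 against 7.54 and 7.19 with DMSO in the CKS2 line, and 7.90 and 8.05 against 7.39 and 7.51 in the NFIL3 line. For the 6 called probes and BAK1 the 4 SB203580 arrays did not overlap the 4 DMSO arrays (7 of 19, against 25.8% of all probes).

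Each averaged SB203580 call ended without some array. With no filter on dim probes the MCL1, BBC3 and PMAIP1 calls also ended (limma adjusted p 0.0501 to 0.0511), with median scaling that of MCL1 (0.0548) and with only the arrays compared that of BIK (0.0678). The fits in which it ended gave 0.39 to 0.44 for BAD (CKS2 DMSO array 2 or NFIL3 SB203580 array 2) and -0.39 to -0.38 for BAX (NFIL3 DMSO array 2 or CKS2 SB203580 array 2). For PMAIP1 they gave 0.30 to 0.33 (CKS2 DMSO array 1, NFIL3 DMSO array 1, CKS2 SB203580 array 2 or NFIL3 SB203580 array 2). For BIK they gave -0.27 to -0.22 (CKS2 DMSO array 2, NFIL3 DMSO array 1, CKS2 SB203580 array 2 or NFIL3 SB203580 array 1). For MCL1 they gave 0.22 to 0.26 (CKS2 DMSO array 2, either NFIL3 DMSO array, CKS2 SB203580 array 1 or NFIL3 SB203580 array 2). The BBC3 call ended without any array of the 4 groups other than NFIL3 DMSO array 1 and CKS2 SB203580 array 2 (-0.42 to -0.34). No member was called for a difference between the CKS2 and NFIL3 lines in the response to SB203580, where 0% of all probes were called. Unadjusted p under 0.05 was met by 0 member probes, and by 887 probes of the whole array.

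**Figure D3:**
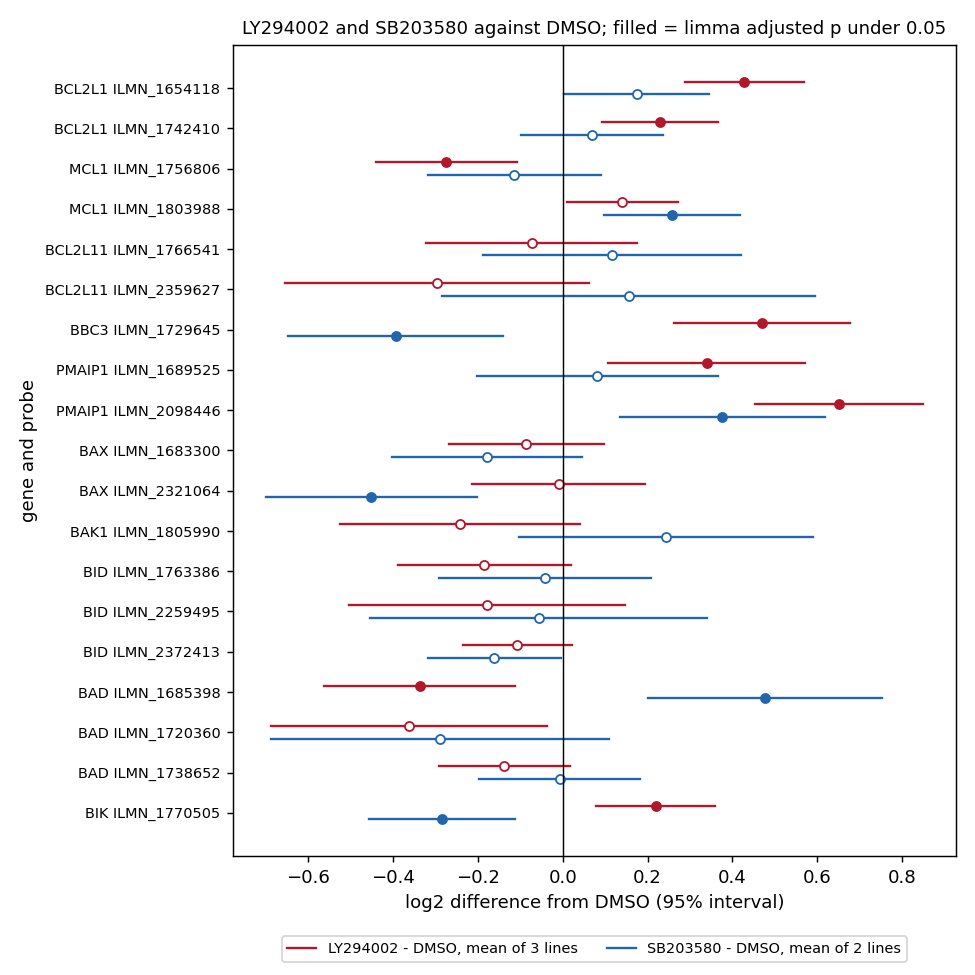
Log2 difference from DMSO (horizontal axis, with 95% limma intervals) of the 19 member probes (vertical axis) for LY294002, mean of the BOP1, CKS2 and NFIL3 lines, and for SB203580, mean of the CKS2 and NFIL3 lines; filled points passed an adjusted p of 0.05. BBC3 and BIK lie right of 0 with LY294002 and left of 0 with SB203580, BAD ILMN_1685398 lies the other way round, and PMAIP1 ILMN_2098446 lies right of 0 with both.

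Because both inhibitors were used at 3.3 µM in the CKS2 and NFIL3 lines, LY294002 was also set directly against SB203580, in a comparison chosen after seeing the data that uses no DMSO array. BBC3 and BIK were higher with LY294002 in both lines, BAX was higher in both on 1 of its 2 kept probes, and BAD ILMN_1685398 was lower in both. The calls were 5 of 19 member probes in CKS2 cells (37.5% of all probes tested) and 7 of 19 in NFIL3 cells (33.6%). BBC3 ILMN_1729645 read 8.47 and 8.94 with LY294002 against 7.82 and 8.03 with SB203580 in the CKS2 line, and 8.70 and 8.96 against 7.98 and 7.98 in the NFIL3 line. The differences of 0.78 (1.72-fold) and 0.86 (1.81-fold, SE 0.17 each) had limma adjusted p of 0.00193 and 0.00118, and both kept their calls under every setting and left-out array. BIK was 0.56 and 0.40 higher (SE 0.11 each, limma adjusted p = 0.00134 and 0.0139), with 10.20 and 10.37 on LY294002 against 9.75 and 9.71 on SB203580 in the CKS2 line. In the NFIL3 line BIK read 10.19 and 10.02 with LY294002 against 9.57 and 9.84 with SB203580.

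BAD ILMN_1685398 read 7.13 and 6.77 with LY294002 against 7.74 and 7.85 with SB203580 in the CKS2 line, and 7.54 and 7.15 against 7.90 and 8.05 in the NFIL3 line. The falls by 0.85 and 0.63 (SE 0.18 each) had limma adjusted p of 0.00197 and 0.0148. BAX ILMN_2321064 was 0.70 and 0.52 higher with LY294002 (SE 0.17 each, limma adjusted p = 0.00346 and 0.0243). BAX ILMN_1683300 was not called in either line (95% intervals -0.32 to 0.31 and -0.33 to 0.31). PMAIP1 ILMN_1689525 was 0.73 higher in the CKS2 line (limma adjusted p = 0.00642) and -0.14 in the NFIL3 line, without a call. PMAIP1 ILMN_2098446, which was above DMSO with both inhibitors, differed between them by 0.33 and 0.36 (95% intervals -0.01 to 0.68 and 0.02 to 0.70) and was not called. In the NFIL3 line BCL2L1 ILMN_1742410 was 0.41 higher, BAK1 0.78 lower and BAD ILMN_1738652 0.36 lower with LY294002 (limma adjusted p = 0.00982, 0.0164 and 0.0404). The 4 LY294002 and 4 SB203580 arrays did not overlap for 6 of 19 member probes (BCL2L1 ILMN_1654118, BBC3, BAX, BAK1, BAD ILMN_1685398 and BIK), against 36.5% of all probes.

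In the CKS2 line the BBC3, BAD and BIK calls held whichever array was left out, while those of BAX (0.42 to 0.56) and PMAIP1 (0.45 to 0.64) ended without LY294002 array 2, or without SB203580 array 2 for BAX and array 1 for PMAIP1. In the NFIL3 line the calls of BAX (0.51 to 0.52) and BAD ILMN_1738652 (-0.42 to -0.29) ended without any 1 of the 4 arrays. Those of BIK (0.26 to 0.31) and BCL2L1 (0.36 to 0.37) ended without array 1 of either group. Those of BAK1 (-0.68 to -0.58) ended without LY294002 array 2 or SB203580 array 1, and those of BAD ILMN_1685398 (-0.56 to -0.44) without array 2 of either group. With only the arrays compared, BAX and PMAIP1 in CKS2 cells and BCL2L1, BIK and both BAD probes in NFIL3 cells were not called (limma adjusted p 0.055 to 0.112). BAX in NFIL3 cells also missed the threshold with median scaling (0.0521), and BAD ILMN_1738652 with no filter (0.0827).

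Rapamycin was given to the NFIL3 line and shares its DMSO arrays with LY294002 and SB203580. BAD ILMN_1685398 fell by 0.78 (1.72-fold, SE 0.18, limma adjusted p = 0.0238), the only call among 19 member probes, against 5.78% of all probes. It read 6.86 and 6.47 with Rapamycin against 7.39 and 7.51 with DMSO, so both Rapamycin arrays lay below both DMSO arrays. The call ended without Rapamycin array 2 or without either DMSO array (-0.84 to -0.59), and with only the arrays compared (limma adjusted p = 0.128). The brightest BAD probe, ILMN_1738652, averaged 9.91 with Rapamycin and 10.01 with DMSO, without a call. BBC3 read 8.63 and 8.89 with Rapamycin and BIK 10.27 and 10.33, against 8.34 and 8.44 and 10.04 and 9.90 with DMSO. Their differences of 0.37 and 0.33 were not called (limma adjusted p = 0.213 and 0.103). PMAIP1 ILMN_1689525 differed by 0.56, BAX ILMN_2321064 by 0.39 and BCL2L1 ILMN_1654118 by 0.27, also without a call (limma adjusted p = 0.0962, 0.176 and 0.179).

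LY294002 set against Rapamycin in the NFIL3 line called 3 of 19 member probes, against 14.1% of all probes. BCL2L1 ILMN_1742410 read 10.68 and 10.58 with LY294002 against 10.09 and 10.13 with Rapamycin (0.52 higher, SE 0.11, limma adjusted p = 0.00688). BAD ILMN_1685398 read 7.54 and 7.15 with LY294002 against 6.86 and 6.47 with Rapamycin (0.68 higher, SE 0.18, limma adjusted p = 0.0229). BAX ILMN_1683300 read 7.63 and 7.61 with LY294002 against 7.91 and 8.29 with Rapamycin (0.48 lower, SE 0.15, limma adjusted p = 0.0418). Another well-measured probe of each of these genes was not called. BCL2L1 ILMN_1654118 differed by 0.10, BAD ILMN_1738652 by -0.20 and BAX ILMN_2321064 by -0.18 (limma adjusted p = 0.606, 0.333 and 0.518). The 2 BAD probes thus differed in opposite directions. Doses differed, at 3.3 µM for LY294002 and 33.3 nM for Rapamycin. BCL2L1 lost its call without LY294002 array 1 (0.47), BAD without LY294002 array 1 or Rapamycin array 2 (0.48) and BAX in 7 left-out fits, including those without either LY294002 array or Rapamycin array 2 (-0.49 to -0.29). With only the arrays compared none of the 3 was called (limma adjusted p 0.0762 to 0.148), nor was BAX with no filter on dim probes (0.0825).

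SP600125 and DAPT were given to the BOP1 line only and are compared with the same 2 DMSO arrays. No member probe was called with either, and limma called 0% of all probes with each. At an unadjusted p under 0.05 there were 1 and 0 member probes, and 2503 and 2698 probes of the whole array. The 1 member probe was MCL1 ILMN_1803988, which read 10.61 and 10.80 with SP600125 against 11.00 and 10.99 with DMSO (-0.29, limma adjusted p = 0.311). BBC3 averaged 7.98 with SP600125, 8.43 with DAPT and 8.26 with DMSO, and PMAIP1 ILMN_2098446 averaged 10.88 with SP600125, 10.81 with DAPT and 10.82 with DMSO.

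**Figure D4:**
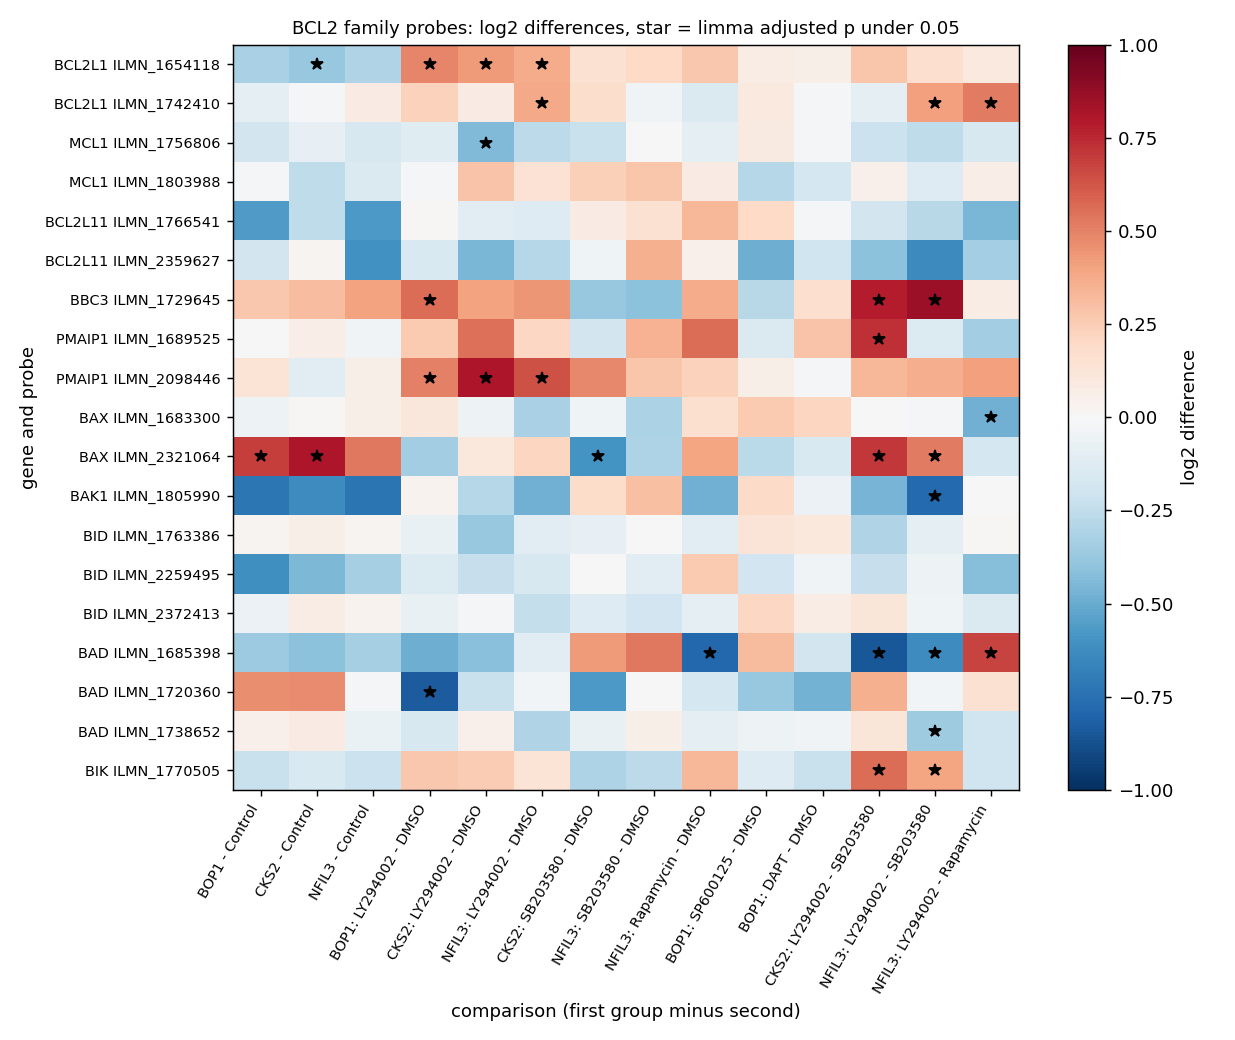
Log2 differences (colour, scale from -1 to 1) of the 19 member probes (vertical axis) in 14 comparisons (horizontal axis, first group minus second); stars mark a limma adjusted p under 0.05. PMAIP1 ILMN_2098446 and BCL2L1 ILMN_1654118 are starred with LY294002 in all 3 lines, and the SP600125 and DAPT columns have no star.

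For the 3 members whose brightest probe varied most between groups, the other genes with the most similar pattern over the 12 group means were looked up by Pearson correlation, as a description. BBC3 ran closest to ITM2C (0.959), RNF135 (0.958) and MBTPS1 (0.956). BAK1 ran closest to ZNF511 (0.966), DUS3L (0.943) and NOC4L (0.935). BAX ran closest to NAXD (0.934), PPIC (0.929) and EML2 (0.921). These are the highest of all tested genes, and the points share the 12 groups and the normalization.

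Other genes of the pathway were read with 1 probe per gene, the brightest kept one, from lists chosen with earlier results of these data known. Averaged over the 3 lines, LY294002 changed 46.9% of the 12141 genes tested, raising 21.6% and lowering 25.3%. Of the 10 other BCL2 family genes tested, 4 rose and 2 fell, with a median difference of -0.07 beside -0.02 over all genes. BNIP3L, a mitophagy receptor, rose by 0.66 and BMF, a BH3-only protein, by 0.88 (limma adjusted p = 1.63e-06 and 0.000779). The BMF probe was dim, so the size of its rise is uncertain. It averaged 6.87 with LY294002 and 5.90 with DMSO in BOP1 cells, and 6.87 and 5.99 in CKS2 cells. With SB203580 it was not well above background in CKS2 cells. The pro-survival genes BCL2 and BCL2L2 fell by 0.57 and 0.33 (limma adjusted p = 0.00188 and 0.000281), against the rise of BCL2L1. With SB203580 BNIP3L fell by 0.46 in CKS2 cells and 0.78 in NFIL3 cells (limma adjusted p = 0.0183 and 0.000742), the only list member called in either (10.3% and 10.9% of all genes called). Against control, BNIP3 fell by 0.81, 0.51 and 0.36 in the BOP1, CKS2 and NFIL3 lines (limma adjusted p = 0.000659, 0.00955 and 0.0476), where 11.5%, 11.6% and 11.8% of all genes were called. BOK of the same list was also called against control in the NFIL3 line (-0.44, limma adjusted p = 0.0219).

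Downstream of the mitochondria, 2 of 11 apoptosome and caspase genes rose with LY294002 and 3 fell, with a median of -0.02. DFFB, the nuclease that cuts DNA in apoptosis, fell by 0.42, the cytochrome c sensor APAF1 by 0.28, and DIABLO, which blocks inhibitors of apoptosis, rose by 0.22 (limma adjusted p = 7.31e-05, 0.0133 and 0.00457). Of the 4 inhibitors of apoptosis tested 1 rose and 1 fell, with a median of -0.04. The fall was that of BIRC5 (survivin), a gene of mitosis as well, by 0.75 (limma adjusted p = 6.8e-07). In the death receptor pathway 3 of 10 genes rose with LY294002 and 2 fell (median 0.16). TNFRSF1A rose by 0.23 and the TRAIL receptor TNFRSF10A fell by 0.38 (limma adjusted p = 0.000694 and 0.000966). Another TRAIL receptor, TNFRSF10B, rose by 0.13, and CASP8 fell by 0.21 (limma adjusted p = 0.0315 and 0.0352). CASP8, which cleaves BID, rose in the BOP1, CKS2 and NFIL3 lines against control by 0.60, 0.69 and 0.50 (limma adjusted p = 0.00937, 0.00437 and 0.0233), the only gene of that list called there.

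Of 11 transcription factors known to act on members, 5 rose with LY294002 and 2 fell (median 0.13). FOXO3 rose by 0.43, FOXO1 by 0.55 and JUN by 0.67 (limma adjusted p = 3.96e-05, 0.000119 and 7.58e-07). With SB203580 JUN rose by 1.08 in CKS2 cells and 1.04 in NFIL3 cells, and FOXO4 fell by 0.55 and 0.53 (limma adjusted p at most 0.00483). DDIT3 and ATF3 are stress factors that act on PMAIP1 and BBC3. They rose in the BOP1 line against control by 0.67 and 0.72 (limma adjusted p = 0.00218 and 0.00486). In the same comparison BBC3 differed by 0.27 (SE 0.17), PMAIP1 ILMN_2098446 by 0.13 (SE 0.16) and PMAIP1 ILMN_1689525 by -0.008 (SE 0.19). These member differences were not called (limma adjusted p = 0.319, 0.633 and 0.984). Whether DDIT3 or ATF3 acted on these members here was not tested. Of 17 protein partners and modifiers of the members, 5 rose with LY294002 and 3 fell (median -0.01). TRIB3, an inhibitor of AKT, fell by 0.76, and PIM1, a kinase that phosphorylates BAD, rose by 0.63 (limma adjusted p = 2.52e-07 and 1.39e-05).

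**Figure D5:**
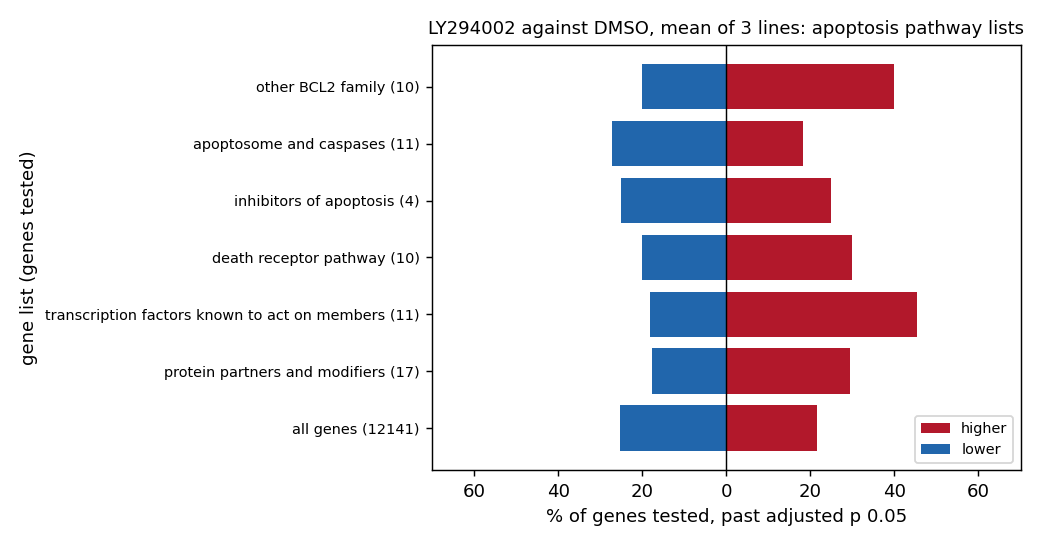
Share of tested genes that rose (right) or fell (left) with LY294002, mean of 3 lines, past a limma adjusted p of 0.05 (horizontal axis, percent), in 6 pathway lists and over all genes (vertical axis, genes tested in brackets). Of the transcription factors 5 of 11 rose and 2 fell, beside 21.6% and 25.3% of all 12141 genes.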

How the data were processed

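RNA from 24 arrays was labelled with biotin after Trizol and RNeasy extraction, per the labels. The deposited non-normalized table gives an intensity (bead summary signal) and a detection p-value per probe and array, per the file headers. The authors' processed table holds linear intensity values, normalized between arrays. GenomeStudio 2010.1 and Partek are named in the submitters' processing notes, without their roles, and the slides are not given in the sources used here. From the deposited signals, limma 3.58.1 (R 4.3.3) corrected background by a normal-exponential model that uses the detection p-values, quantile normalized, added an offset of 16 and took log2. Of 47323 probes, 17202 had no gene symbol in GEO's platform annotation and 8 had several. Probes detected (p under 0.01) on 2 or more arrays were kept (21608 probes).

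All 24 arrays entered a single limma fit of 12 group means (12 residual and 3.91 prior degrees of freedom). Comparisons are contrasts, adjusted by Benjamini-Hochberg over all kept probes. For gene lists 1 probe per gene was used (12141 genes), with its p-value adjusted over all kept probes. Rose, fell and called mean an adjusted p under 0.05. A probe is not well above background in a group when its detection p is 0.01 or more on every array of it. The labels describe the samples as biological replicates without naming separate cultures, so the spread that p-values rest on may be technical in part. The members, lists and tests were chosen with earlier results of these data known, and 4 of 24 comparisons were added after seeing the data. Every probe of the members was reported. Results on 1 further gene list and 1 further motif are not reported here. From each list up to 4 genes per comparison with the smallest p among those called could be named, and not all are printed. For the 3 members whose brightest probe had the largest SD over group means, the 3 most correlated genes were named. The fits were tested on simulated data. Figures used matplotlib 3.10.9 under Python 3.11.15.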

Additional observations from a re-analysis of the deposited data

How the results depend on the processing

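Of 47 called member values, 8 kept their call and direction under every setting and every left-out array, 15 under every setting and 11 under every left-out array. None changed direction. Of 409 uncalled values, 37 were called under some setting. Lines against control gave 3 member calls, and 8 from log2 raw signals, 8 from the authors' processed values, 9 with median scaling, 6 with an offset of 50, 6 with probes detected on all 24 arrays and 6 with 1 probe per gene. LY294002 gave 18 calls, 11 with 1 probe per gene and 8 with only the arrays compared. SB203580 gave 1 call, 3 from raw signals, 3 from processed values, 2 with median scaling, 3 with probes detected on all arrays, 0 without a filter and 0 with only the arrays compared. Rapamycin gave 4 calls over both comparisons, 0 with 1 probe per gene and 0 with only the arrays compared. The 4 added comparisons gave 21 calls, and 13 with only the arrays compared. With only the arrays compared, few residual degrees of freedom remain. Other causes were not tested. Leaving out 1 array gave 1 to 7 calls for lines against control, 14 to 25 for LY294002, 0 to 2 for SB203580, 1 to 5 for Rapamycin, 14 to 24 for the added comparisons and 8 to 12 varying probes. Lines against each other, SP600125, DAPT and the differences between lines gave 0 member calls throughout.

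The replicate number as a block gave 5 calls for lines against control and ended that of BCL2L1 ILMN_1654118 in the CKS2 line (adjusted p = 0.0514, limma). The labels share only a number between groups, and over 66 pairs of groups the deviations of same-numbered arrays correlated at -0.096 to 0.295. The slide could not be used as a block, since slides are not given in the sources used here. Probes of BCL2L11 and 1 each of BID and BAD are near background, which limits what their values show.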
